A study of Mus musculus with 44 samples.

Results

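RNA of immunoprecipitated hepatocyte nuclei was compared between 3 mice with advanced and 4 mice with mild steatohepatitis after 7 weeks on CDAHFD, a high-fat diet that lacks choline and is defined in its amino acids. These 7 libraries, chosen by diet, fraction and disease stage from their labels, are part of 44 in the series, and all genes counted in them were used. All mice were males of the HEP-INTACT line, in which nuclei of hepatocytes carry a tag that allows them to be pulled out of a liver homogenate. The promoter behind the tag is not named in the labels. Every diet-fed liver was placed in the advanced or the mild group by its histology. Steatosis and inflammation were present in both, whereas a significant degree of fibrosis was seen in advanced livers alone, so the groups differ by outcome and were not randomised. The advanced mice were Advanced_9845, Advanced_9896 and Advanced_10104, the mice Mild_9852, Mild_9853, Mild_9894 and Mild_10102, and 4 control mice on a low-fat diet for the same time (Control_9862, Control_9867, Control_10110 and Control_10113) gave the baseline level. Values of single mice are listed in this order throughout. Whole liver nuclei of the same mice, and hepatocyte nuclei of other mice on the FPC diet for 20 weeks (3 advanced and 4 mild), served for comparison.

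Hepatocytes carry out most of the synthetic work of the liver: they secrete plasma proteins, make cholesterol and bile acids, take up organic anions from blood through transporters of the sinusoidal membrane, and detoxify drugs with cytochromes P450. A diet without choline limits the making of phosphatidylcholine, which hepatocytes need to export triglyceride in very low density lipoprotein (VLDL), so fat is retained in the cells. In chronic injury hepatocytes can lose part of this program and express genes known from bile duct cells, liver progenitors and wound repair. Nuclear RNA holds many unspliced transcripts, and the counts cover introns and exons, so levels here lie closer to transcription than those of total cell RNA.

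The hepatocyte libraries of advanced mice held 12.1 to 21.9 M counts, those of mild mice 14.8 to 24.8 M, and all 44 libraries 12.1 to 33.1 M. Genes with a count numbered 14107, 15122 and 15323 in advanced, 15229 to 15430 in mild and 14266 to 14770 in control mice. Mouse Advanced_9845 thus had the fewest genes, although mouse Advanced_9896 had fewer counts (12.9 M and 12.1 M). Of 19 measured hepatocyte markers, none passed the test between stages (median log2 fold change -0.29). That comparison does not check the identity of the nuclei. The antithrombin gene Serpinc1 stood at 621, 529 and 570.2 counts per 1000000 (CPM) in advanced and 698, 702, 697 and 711 CPM in mild mice (-0.29 ± 0.11, adjusted p = 0.15). RNA of marker genes of other cells remained in part, and whether it came from nuclei of those cells was not tested. It is given as the summed marker CPM of the hepatocyte fraction relative to whole liver nuclei of the same mouse. The ratio for hepatocyte markers themselves was 149 to 161% in advanced and 138 to 155% in mild mice. For lymphocyte markers this ratio was 21.6 to 31.6% in advanced and 29.5 to 39.6% in mild mice, for stellate cell markers 28.5 to 36.1% in advanced and 31.3 to 42.2% in mild mice, and for mesothelial markers 39.7 to 52.6% in advanced and 27.2 to 49.3% in mild mice. It was 16.1 to 21.7% in advanced and 16.9 to 19.2% in mild mice for Kupffer cells, 12.9 to 15.9% in advanced and 11.5 to 12.4% in mild mice for endothelial cells, and lower for recruited macrophages and neutrophils. Some defining markers were under 1 CPM in all 7 libraries. These were 5 of 16 stellate cell, 9 of 18 lymphocyte, 6 of 7 neutrophil and 4 of 6 mesothelial markers. So were 2 of 13 Kupffer cell and 1 of 13 cholangiocyte markers. Other members of the stellate cell and lymphocyte lists were well above 1 CPM, as the sums of both lists show. The mesothelial sum came mostly from Gpm6a and Krt19, the second of which is also on the cholangiocyte list. Of 20 library measures (totals, genes detected and marker levels), none passed a two-sided exact permutation test adjusted over the 20 (smallest adjusted p = 0.229), although 3 against 4 mice cannot give a raw p under 0.0571. In 5 of them the stages were fully separate, at that smallest p. The mean log2 CPM of hepatocyte markers was 8.45 to 8.69 in advanced and 8.76 to 8.97 in mild mice, and that of endothelial markers 2.01 to 2.11 in advanced and 2.16 to 2.45 in mild mice. The summed CPM of stellate cell markers was 176 to 212 in advanced and 224 to 342 in mild mice, that of lymphocyte markers 152 to 184 in advanced and 217 to 338 in mild mice, and that of mesothelial markers 41.8 to 58.6 in advanced and 13.8 to 36.4 in mild mice. For each of these lists the other measure, summed CPM or mean log2 CPM, overlapped between stages. The mean log2 CPM of stellate cell markers was 1.77 to 1.96 in advanced and 1.69 to 1.96 in mild mice. For lymphocyte markers it was 0.60 to 0.88 in advanced and 0.72 to 0.98 in mild mice. For mesothelial markers it was 0.39 to 0.87 in advanced and 0.25 to 0.86 in mild mice. The part of these differences between stages in the results on single genes was not tested.

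Of 13277 genes tested, 375 (2.82%) differed between advanced and mild hepatocyte nuclei at an adjusted p under 0.05 by edgeR's quasi-likelihood test with Benjamini-Hochberg adjustment. Higher in advanced mice were 173 genes (1.3%), 121 of them at least 2-fold and 31 at least 4-fold. Lower were 202 genes (1.52%), 81 of them at least 2-fold and 18 at least 4-fold. The median log2 fold change of all genes tested was -0.00, with 6629 above and 6648 below 0; the counts of the gene lists that follow are to be read against these shares. With upper quartile scaling 180 genes were higher and 124 lower, so that 59.2% of calls were higher against 46.1% with TMM scaling. RLE scaling (177 higher, 145 lower; 55.0% higher) and DESeq2 (54.5% higher) also gave a majority of higher calls. In 374 of the 375 the values of the 3 advanced and 4 mild mice did not overlap, where 22.6% of all genes tested had no overlap; Arhgap27 was the exception. The number of calls rested on single libraries: it fell to 60 without mouse Advanced_9896, 95 without mouse Mild_9852, 127 without mouse Mild_9853, 148 without mouse Advanced_9845, 213 without mouse Mild_10102 and 239 without mouse Advanced_10104, and was 745 without mouse Control_10113. In all 7 fits that each left out an advanced or a mild mouse, 54 genes were called (36 higher, 18 lower). No called gene changed sign, which the lack of overlap in 374 of the 375 had all but fixed in advance.

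The largest rise belonged to Gldn, the gene of gliomedin, which is known for clustering sodium channels at nodes of peripheral nerve (chromosome 9, 54286486 to 54341777, mm10). Gldn stood at 81.9, 65.6 and 84.5 CPM in advanced mice, at 1.58, 1.17, 5.27 and 1.72 CPM in mild mice and at 1.12, 7.96, 0.857 and 1.42 CPM in controls. All 3 advanced mice were thus far above every other mouse, while mild mice and controls overlapped (log2 fold change 4.99 ± 0.74, adjusted p = 0.0088). Frmd5, a FERM domain protein, was second with 23, 4.85 and 11.7 CPM in advanced and 0.539, 0.612, 0.903 and 1.15 CPM in mild mice (4.06 ± 0.51, 0.0026). Tmc5, a gene of the transmembrane channel-like family, followed at 3.78 ± 0.88 (0.047), but 6 of the 7 fits that left out an advanced or mild mouse did not call it (up to 0.135, with mouse Mild_9852 left out).

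**Figure D1:**
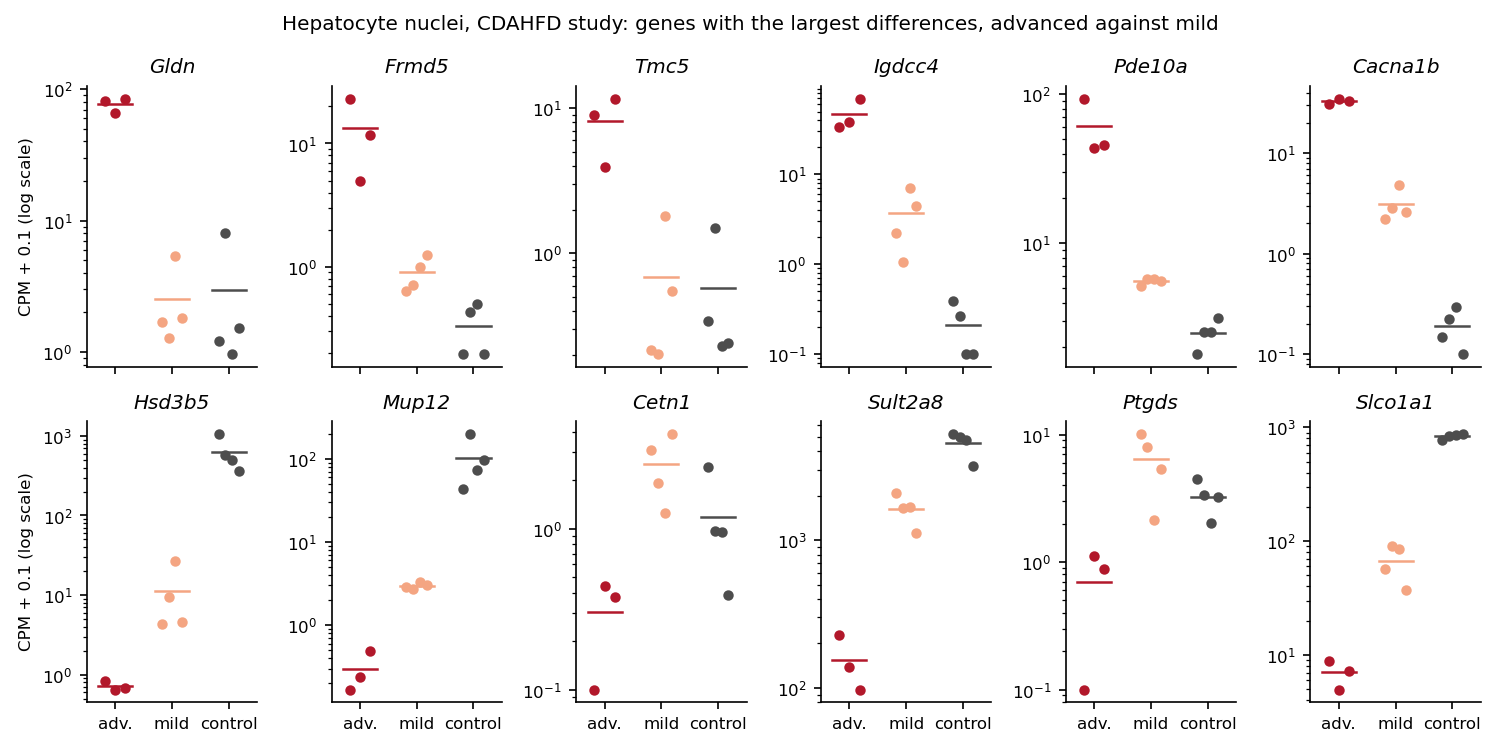
Level of the 6 genes with the largest rise (upper row) and the 6 with the largest fall (lower row) in hepatocyte nuclei, in CPM plus 0.1 on a log axis; each point is 1 mouse of the advanced (left), mild (middle) or control (right) group and bars are means. The genes were chosen among those whose advanced and mild mice do not overlap; Gldn averages 77.3 CPM in advanced and 2.44 CPM in mild mice, Sult2a8 155 CPM in advanced and 1630.3 CPM in mild mice.

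The promoters of genes at or near both ends of the list are shown so that their sequence can be read beside their values. Genes without a promoter entry or on a chromosome excluded by rule were passed over. Mup12 and Cetn1, which fell more than Sult2a8, are therefore not shown. The windows run from 250 bases before to 50 after the start site, 5′ to 3′ on the gene's strand, from RefSeq (GRCm38.p6, the build mm10). Capitals mark matches to 6 short motifs searched on both strands.
Gldn (chr9:54286236-54286535, plus strand): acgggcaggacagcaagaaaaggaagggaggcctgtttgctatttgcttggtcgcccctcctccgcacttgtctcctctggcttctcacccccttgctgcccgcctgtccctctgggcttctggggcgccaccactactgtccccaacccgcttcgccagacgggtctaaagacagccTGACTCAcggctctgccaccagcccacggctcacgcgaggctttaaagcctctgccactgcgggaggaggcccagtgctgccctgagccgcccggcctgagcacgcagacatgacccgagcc
Frmd5 (chr2:121807008-121807307, minus strand): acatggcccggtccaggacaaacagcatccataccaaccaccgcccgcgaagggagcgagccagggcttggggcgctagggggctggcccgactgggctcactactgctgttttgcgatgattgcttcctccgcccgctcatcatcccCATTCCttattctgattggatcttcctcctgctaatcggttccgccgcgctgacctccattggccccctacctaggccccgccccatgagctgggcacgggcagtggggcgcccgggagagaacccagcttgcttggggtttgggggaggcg
Hsd3b5 (chr3:98645485-98645784, minus strand): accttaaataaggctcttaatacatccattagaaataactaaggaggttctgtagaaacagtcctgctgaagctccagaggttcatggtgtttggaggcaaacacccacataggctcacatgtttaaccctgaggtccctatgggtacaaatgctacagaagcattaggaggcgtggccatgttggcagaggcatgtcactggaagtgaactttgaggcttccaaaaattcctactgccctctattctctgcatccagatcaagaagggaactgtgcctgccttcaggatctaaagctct
Sult2a8 (chr7:14446538-14446837, minus strand): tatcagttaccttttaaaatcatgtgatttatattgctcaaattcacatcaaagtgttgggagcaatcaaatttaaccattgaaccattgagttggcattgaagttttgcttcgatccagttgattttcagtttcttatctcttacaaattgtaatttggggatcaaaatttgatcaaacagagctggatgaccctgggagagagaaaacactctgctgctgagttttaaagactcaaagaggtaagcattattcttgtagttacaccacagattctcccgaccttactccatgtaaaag

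The Gldn window holds 1 match to TGANTCA, the AP-1 motif, and the Frmd5 window 1 match to GGAATG, the TEAD motif, read on the opposite strand. These are matches of letters, not shown binding sites. Over the 134 higher genes with a promoter entry, 7.46% held TGANTCA, over the 152 lower genes 9.21%, and over all 10616 tested genes with an entry 5.11%. GGAATG was in 12.7% of higher, 13.8% of lower and 12% of all promoters. CAGGAAGT of ETS factors was in 2.99% of higher, 2.63% of lower and 3.49% of all. The HNF4 motif CAAAGTCCA was in 0% of higher, 1.32% of lower and 0.49% of all, GGANTTTCC of NF-kB in 0.746%, 1.32% and 1.28%, and TTGCGCAA of C/EBP in 0.746%, 0% and 0.273% of the same sets.

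Cacna1b, the pore subunit of the N-type calcium channel, stood at 30.7, 34.7 and 33.0 CPM in advanced, 2.12, 2.75, 4.76 and 2.49 CPM in mild and 0 to 0.198 CPM in control mice (3.43 ± 0.30, adjusted p = 0.00029). Pde10a, a phosphodiesterase of cyclic AMP and cyclic GMP, stood at 93.3, 43.8 and 45.7 CPM in advanced and 5.08, 5.66, 5.62 and 5.49 CPM in mild mice (3.48 ± 0.26, 0.00011). Its mild values lay close together, and mouse Advanced_9845 was the highest of the advanced mice. Both genes were thus several-fold above every mild mouse in each advanced mouse. Cntnap1, the axonal partner protein of the paranodal junction, rose to 50.1, 49.6 and 48.5 CPM in advanced against 17.9, 16.4, 20.5 and 15.8 CPM in mild mice (1.48 ± 0.16, 0.00094). Rbm24, an RNA-binding regulator of splicing in muscle, had 12.7, 17 and 10.9 CPM in advanced and 1.96, 1.94, 3.46 and 2.04 CPM in mild mice (2.52 ± 0.28, 0.0036), and 0 counts in all 4 controls.

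Tspan15, a tetraspanin that guides the sheddase ADAM10, had the smallest p of all genes, with 23.4, 38.4 and 38.0 CPM in advanced, 4.47, 3.62, 3.96 and 3.83 CPM in mild and 0.76 to 1.11 CPM in control mice (3.06 ± 0.20, adjusted p = 3.3e-05). Myo7b, a myosin of brush border microvilli, reached 23.5, 20.9 and 21.7 CPM in advanced against 2.12, 1.17, 2.61 and 2.74 CPM in mild mice (3.35 ± 0.39, 0.0017). Igdcc4, an immunoglobulin superfamily receptor, had 33.3, 37.7 and 69.2 CPM in advanced and 2.12, 0.968, 6.87 and 4.40 CPM in mild mice (3.71 ± 0.56, 0.0084). The orphan receptor Gprc5b (2.90 ± 0.39), the Ras GTPase-activating protein Rasal1 (2.75 ± 0.35), the Rap1 GTPase-activating protein Rap1gap2 (1.16 ± 0.12), the amino acid transporter subunit Slc7a7 (1.06 ± 0.13) and BC016579 (1.93 ± 0.17) rose as well. Rasal1 stood at 57.4, 72.5 and 72.8 CPM in advanced, 6.05, 6.01, 14.4 and 13.8 CPM in mild and 0.0475 to 0.436 CPM in control mice, so that mild mice already exceeded every control. Plat, the tissue plasminogen activator, rose by 2.67 ± 0.40 (0.0065). Rab44 (2.86 ± 0.53), the protease inhibitor gene Wfdc3 (2.55 ± 0.39) and the transcription factor Klf4 (2.41 ± 0.47) passed too, and each lost its call without mouse Advanced_9896 (0.11, 0.0506 and 0.103).

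A pair of enzymes of glycogen breakdown and glycolysis rose in forms that are not the main liver forms. Pygb, the brain glycogen phosphorylase, rose to 59.0, 55.5 and 66.8 CPM in advanced against 11.7, 10.7, 16.9 and 15.8 CPM in mild mice (2.14 ± 0.21, adjusted p = 0.00063). Pfkp, the platelet phosphofructokinase, rose to 23.4, 21.1 and 29.8 CPM in advanced against 3.89, 5.91, 5.47 and 4.40 CPM in mild mice (2.33 ± 0.24, 0.00063). In both genes the mild mice stood above all 4 controls, which had 1.45 to 2.94 CPM of Pygb and 0.784 to 1.71 CPM of Pfkp.

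Among called genes with a mean of at least 1 CPM and no overlap between stages, Hsd3b5 had the steepest fall. This gene, a hydroxysteroid dehydrogenase of male mouse liver (chromosome 3, 98618636 to 98645534, mm10), had 0.741, 0.547 and 0.588 CPM in advanced, 4.20, 9.28, 27 and 4.47 CPM in mild and 1053, 573, 499 and 359 CPM in control mice (log2 fold change -4.16 ± 0.82, adjusted p = 0.029). Most of its distance from controls was thus present in mild mice, and its call did not hold in 4 of the 7 leave-one-out fits (up to 0.116, with mouse Advanced_9896 left out). Sult2a8, a liver sulfotransferase (chromosome 7, 14410686 to 14446587), had 229.6, 138 and 97.1 CPM in advanced, 2074, 1653, 1668 and 1127 CPM in mild and 5235, 4987, 4767 and 3190.2 CPM in control mice (-3.40 ± 0.33, 0.00057). Slco1a1, an uptake transporter of organic anions, had 8.82, 4.85 and 7.10 CPM in advanced, 57.3, 90.8, 84.9 and 37 CPM in mild and 779.8, 833, 862 and 872 CPM in control mice (-3.28 ± 0.31, 0.00057). In these last 2 genes the 3 groups did not overlap, and the calls stood whichever mouse was left out.

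The other steep falls were in genes of varied roles. Ptgds, a prostaglandin D synthase, had 0, 1.03 and 0.784 CPM in advanced and 9.98, 7.90, 2.06 and 5.30 CPM in mild mice (-3.34 ± 0.71, adjusted p = 0.035; 0.104 without mouse Mild_9852). Cetn1 (-3.46), Lrtm1 (-2.90 ± 0.51), Acpp (-2.35), Trhde, which degrades thyrotropin-releasing hormone (-2.33), Jph1 (-2.18) and the complement regulator Susd4 (-2.16) fell at least 4-fold. The calls of Jph1 and Susd4 stood whichever mouse was left out, while those of Cetn1, Lrtm1, Acpp and Trhde were lost without mouse Advanced_9896, among others (up to 0.133 for Cetn1). Among genes with the smallest p, the phosphodiesterase Pde1a fell to 15.3, 10.9 and 15.4 CPM in advanced against 40.4, 43.9, 41.2 and 56.0 CPM in mild mice (-1.70 ± 0.21, 0.0023), and Fn3k, which repairs sugar-modified proteins, fell by 1.65 ± 0.21 on the log2 scale (0.0027).

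Of 15 tested genes with male-biased expression in mouse liver, 4 fell and none rose, and all 15 had a log2 fold change below 0 (median -1.29), where 1.52% of all genes were lower and 6648 of 13277 lay below 0. Besides Hsd3b5 and Slco1a1 these were Mup12, a major urinary protein (-3.60 ± 0.70, adjusted p = 0.025), and Cyp2d9 (-1.64 ± 0.26, 0.009). Both lost the call without mouse Advanced_9896 (0.111 and 0.0663). Mup3, another urinary protein outside that list, had 4.24, 4.65 and 4.94 CPM in advanced, 32.0, 22.8, 14 and 18.4 CPM in mild and 259 to 593 CPM in control mice (-2.24 ± 0.34, 0.0075; 0.0506 without mouse Advanced_9896). Reads of Mup, Hsd3b, Sult2a and Cyp2 genes may have been divided among near-identical copies, so values of single members are uncertain. Of 10 female-biased genes none passed (median -0.02), with Cyp2a4 at 0.89 ± 0.30 (0.13). In the growth hormone axis, which sets this sex bias, 1 of 13 genes fell (median -0.28): the receptor Ghr had 2722, 2263 and 2649 CPM in advanced, 4982, 4668, 4690.4 and 4665 CPM in mild and 10697 to 20970.0 CPM in control mice (-0.90 ± 0.20, 0.041), a call that none of the 7 leave-one-out fits kept (up to 0.159). Igf1 did not pass (-0.33 ± 0.97, 0.89), with 656, 515 and 633 CPM in advanced and 132 to 1525 CPM in mild mice.

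Of 20 bile acid genes 6 fell and none rose (median -0.75; 18 below 0). The uptake transporters Slco1a1 (above) and Slco1b2 were among them, the second with 663, 438 and 604 CPM in advanced and 1263, 1138, 1059 and 1149 CPM in mild mice (-1.02 ± 0.16, adjusted p = 0.009; 0.0506 without mouse Advanced_9896). Cyp27a1, which opens the acidic pathway of bile acid synthesis, fell by 0.83 ± 0.17 on the log2 scale (0.025), and Slc27a5, which activates bile acids for conjugation, by 1.21 ± 0.27 (0.039). The remaining calls, named after their values were seen, were the bile acid uptake transporter Slc10a1 at -1.31 ± 0.31 (0.049) and the synthesis enzyme Hsd3b7 at -0.75 ± 0.17 (0.044). Slc10a1 had 9.02, 11.7 and 16.5 CPM in advanced, 26.8 to 40.5 CPM in mild and 153 to 404 CPM in control mice. All of these calls but that of Slco1a1 were lost without mouse Advanced_9896, among others. Cyp7a1, which limits the rate of bile acid synthesis, did not pass (0.53 ± 0.52, 0.62) and overlapped between groups. Cyp8b1, which sets the cholic acid share, stood at 8.08, 2.19 and 7.80 CPM in advanced against 16.6 to 19.4 CPM in mild mice (-1.59 ± 0.44, 0.075).

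Among 16 cytochromes P450 and their regulators, 2 fell (median -0.75): Cyp2d9 and Nr1i3, the nuclear receptor CAR that switches on drug-metabolising genes. Nr1i3 had 58.0, 75.3 and 84.7 CPM in advanced, 265, 211, 146 and 307 CPM in mild and 96.6, 118, 137 and 118 CPM in control mice (-1.68 ± 0.24, adjusted p = 0.005). It was therefore highest in the mild group and lowest in the advanced group, and its call stood whichever mouse was left out (largest 0.0331). The ethanol-inducible Cyp2e1 had 614, 509.5 and 874 CPM in advanced and 1858 to 2239 CPM in mild mice and did not pass (-1.62 ± 0.48, 0.091). Cyp2c54 fell by 2.74 ± 0.57 on the log2 scale (0.035; up to 0.128 without mouse Advanced_9896). Of 17 genes expressed around central veins, 2 fell (median -0.60), Cyp27a1 and the glutamine synthetase Glul with 204, 214 and 187 CPM in advanced, 289, 316, 321 and 293 CPM in mild and 136 to 177 CPM in control mice (-0.60 ± 0.11, 0.02; 0.0715 without mouse Advanced_9896). Of 13 genes expressed around portal tracts 1 rose, the cadherin Cdh1 (0.69 ± 0.14, 0.03; 0.111 without mouse Advanced_9896; median of the list -0.20).

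Of 25 cholesterol synthesis genes 4 fell and none rose, and all 25 had a log2 fold change below 0 (median -0.97), beside 1.52% of all genes called lower and 6648 of 13277 below 0. Dhcr7, the last reductase of the pathway, had 11, 13.6 and 14.8 CPM in advanced and 27.8, 27.2, 31.0 and 25.8 CPM in mild mice (-1.09 ± 0.18, adjusted p = 0.011; 0.063 without mouse Advanced_9896). The sterol reductase Hsd17b7 (-1.30 ± 0.25; not called in 4 of the 7 leave-one-out fits, up to 0.0726) and the mevalonate enzymes Pmvk (-1.23 ± 0.27) and Mvd (-1.30 ± 0.31) were the others, and calls of Pmvk and Mvd were kept in none of the 7 leave-one-out fits (up to 0.104 and 0.118). Controls were not uniformly high in these genes: Mvd had 3.90, 5.26 and 3.72 CPM in advanced, 8.86 to 14.7 CPM in mild and 2.75 to 7.13 CPM in control mice.

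Of 20 fatty acid synthesis genes, 2 fell (median -0.25). Acss2, which makes cytosolic acetyl-CoA from acetate, had 37.2, 39.2 and 38.0 CPM in advanced, 103, 87.5, 95.6 and 123 CPM in mild and 121 to 178 CPM in control mice (-1.42 ± 0.16, adjusted p = 0.00098). Mlxipl, the carbohydrate-responsive factor ChREBP, had 782, 1065 and 1112 CPM in advanced and 1799.5, 1728, 1887 and 1643 CPM in mild mice (-0.84 ± 0.15, 0.014; 0.0578 without mouse Advanced_9896). None of 21 fatty acid oxidation genes passed (median -0.29), among them Ppara at -0.54 ± 0.24 (0.23) and Ppargc1a at -0.69 ± 0.17 (0.055). None of 17 lipid droplet genes passed (median 0.06). The droplet protein Cidec came nearest, with 29.2, 39.8 and 30.3 CPM in advanced, 8.59, 11.4, 17.7 and 9.96 CPM in mild and 0.165 to 1.07 CPM in control mice (1.47 ± 0.36, 0.0518).

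Among 18 apolipoprotein and VLDL assembly genes, Apoa4 was the 1 call. It had 106, 111 and 77.9 CPM in advanced, 22.9, 21.8, 21 and 19.0 CPM in mild and 3.99 to 16.6 CPM in control mice (2.21 ± 0.34, adjusted p = 0.0088; 0.0506 without mouse Advanced_9896), while the other 17 members lay below 0 and did not pass (median of all 18, -0.39). Of 22 genes of choline and one-carbon metabolism 1 fell, the betaine aldehyde dehydrogenase Aldh7a1 (-0.67 ± 0.14, 0.034; up to 0.109), and the median was -0.59. Pemt, which makes phosphatidylcholine without dietary choline, stood at -0.66 (0.23).

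Lists of other hepatocyte functions held 1 to 3 lower genes each, beside 1.52% of all genes, and a single call in 20 is no result about its list. The urea cycle enzyme Otc had 130, 96.5 and 133 CPM in advanced and 238, 203, 190 and 253 CPM in mild mice (-0.88 ± 0.19, adjusted p = 0.033), and the citrin gene Slc25a13 fell by 0.64 ± 0.15 on the log2 scale (0.045); they were the 2 calls in 20 genes of urea, glucose and amino acid metabolism (median -0.42). In complement and coagulation 3 of 25 genes fell (median -0.34): plasminogen (Plg, -1.06 ± 0.18, 0.011), the factor XIII subunit F13b (-0.87 ± 0.21, 0.047) and protein C (Proc, -0.47 ± 0.11, 0.0498). Lbp, which binds bacterial lipopolysaccharide, was the only call among 20 acute phase genes (-1.16 ± 0.25, 0.034; median -0.07), and Sdhb of the respiratory chain among 20 (-0.47 ± 0.10, 0.035; median -0.21). These 7 calls were each lost without mouse Advanced_9896 (0.0556 for Plg, up to 0.17 for F13b). Haao and Cd1d1 had tighter differences. Haao, an enzyme of tryptophan breakdown, had 92.3, 96.6 and 121 CPM in advanced and 232, 228, 202 and 254 CPM in mild mice (-1.15 ± 0.12, 0.00089). Cd1d1, which presents lipid antigens, had 44.6, 48.5 and 45.5 CPM in advanced, 110, 90.7, 89.9 and 109 CPM in mild and 73.3 to 87.0 CPM in control mice (-1.11 ± 0.11, 0.00063).

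**Figure D2:**
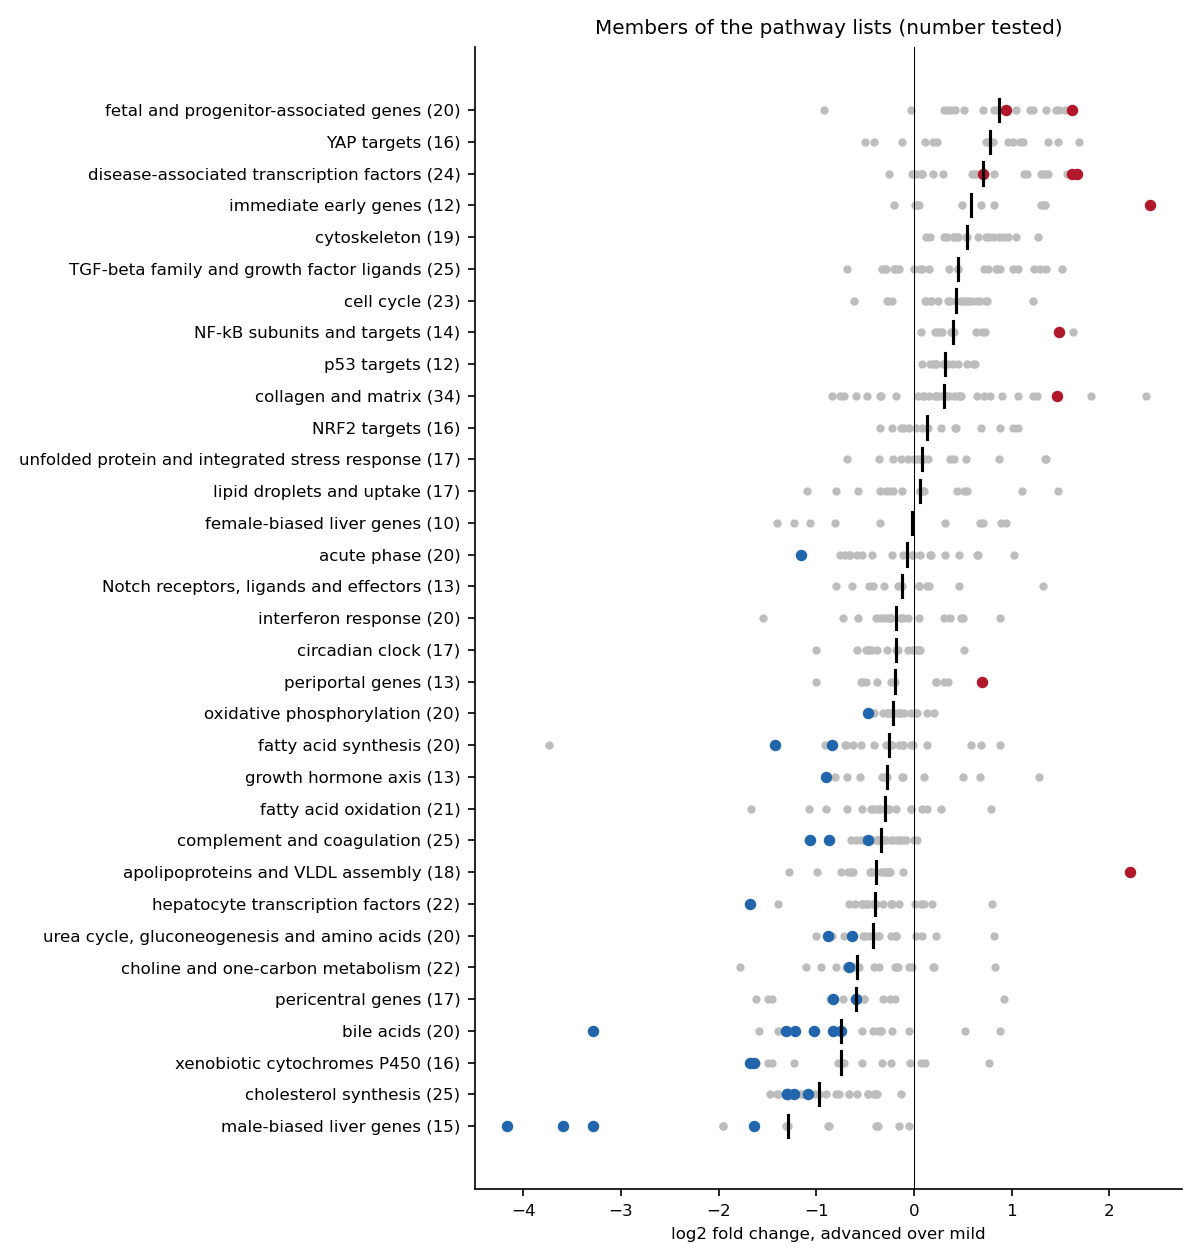
Log2 fold change, advanced over mild, of the tested members of 33 pathway lists; each point is 1 gene (red, called higher; blue, called lower; grey, not called), black ticks are list medians, and the number of tested members is in parentheses. Medians run from -1.29 (male-biased liver genes) to 0.87 (fetal and progenitor-associated genes), and 9 genes were called higher and 26 lower among 578.

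Of 22 transcription factors that define hepatocytes, Nr1i3 was the 1 called (median -0.40). Hnf4a had 225, 408 and 388 CPM in advanced and 363 to 397 CPM in mild mice (-0.16 ± 0.19, adjusted p = 0.69), and Cebpa stood at -0.47 ± 0.32 (0.45). Esrrg, an orphan nuclear receptor of energy metabolism that was not on that list, had 31.6, 21.2 and 27.3 CPM in advanced, 171, 125, 116 and 280.2 CPM in mild and 159.9 to 335 CPM in control mice (-2.70 ± 0.35, 0.0036). Mild mice and controls overlapped in Esrrg, and all advanced mice lay below both.

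Of 24 transcription factors associated with liver disease, 3 rose (median 0.71; 22 above 0). Klf5 had 4.78, 5.54 and 6.08 CPM in advanced, 1.16, 1.02, 2.16 and 2.62 CPM in mild and 0.165 to 0.291 CPM in control mice (1.67 ± 0.32, adjusted p = 0.022). Sox4 rose by 1.62 ± 0.36 (0.037), as did the AP-1 subunit Fosl2 by 0.71 ± 0.17 (0.049). Elf3 (0.60 ± 0.41, 0.45), Glis2 (1.12 ± 0.41, 0.15) and Sox9 (0.70 ± 0.35, 0.29) did not pass. Of 20 fetal and progenitor-associated genes 2 rose, Sox4 and the hyaluronan receptor Cd44 (0.94 ± 0.18, 0.022), and 18 lay above 0 (median 0.87). Calls of Klf5, Sox4, Fosl2 and Cd44 were lost without mouse Advanced_9896, among others (up to 0.145 for Fosl2, with mouse Mild_9852 left out).

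Genes of bile duct cells varied within the mild group. Of 12 tested cholangiocyte markers, 1 rose and 11 lay above 0 (median 0.95). Cftr, the chloride channel of bile ducts, had 29.1, 41.2 and 44.5 CPM in advanced, 6.78, 5.61, 18.7 and 17.6 CPM in mild and 0.264 to 0.76 CPM in control mice (1.66 ± 0.39, adjusted p = 0.048; up to 0.145 without mouse Advanced_9896). Bicc1 had 154, 211 and 262 CPM in advanced and 53.5, 51.8, 128 and 135 CPM in mild mice (1.19 ± 0.35, 0.085), and Epcam 6.4, 6.77 and 6.55 CPM in advanced and 1.23, 0.917, 3.91 and 3.0 CPM in mild mice (1.55 ± 0.44, 0.078). Spp1, or osteopontin, had 19.7, 33.6 and 35.1 CPM in advanced and 9.55, 5.25, 16.9 and 19.4 CPM in mild mice (1.21 ± 0.40, 0.12). The matrix protease Mmp7 had 3.37, 5.74 and 12.1 CPM in advanced and 0.193, 0.204, 2.71 and 2.55 CPM in mild mice (2.37 ± 0.88, 0.18), with 0 counts in controls. In each of these 5 genes mice Mild_9894 and Mild_10102 stood above mice Mild_9852 and Mild_9853. The summed CPM of the cholangiocyte markers was 1526 to 2127 in advanced, 916 to 1736 in mild and 527 to 1826 in control mice. Its highest control was mouse Control_9862. The mean log2 CPM of these markers was 4.71 to 5.26 in advanced, 3.75 to 4.77 in mild and 2.72 to 2.94 in control mice. Onecut1, also on the list of hepatocyte transcription factors, averaged 128 CPM in advanced, 178 CPM in mild and 369 CPM in control mice, so the sum is not specific to bile ducts. The hepatocyte to whole liver ratio of the sum was 96.1 to 100.6% in advanced and 94.2 to 103.5% in mild mice. In such libraries a different number of nuclei of a cell type and a different amount of RNA per nucleus cannot be told apart, and the part of bile duct nuclei in these values was not tested.

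Of 34 collagen and matrix genes Lama5, a laminin chain of epithelial basement membranes, rose to 60.6, 91.4 and 90 CPM in advanced against 19.1, 18.5, 38.7 and 40.7 CPM in mild mice (1.47 ± 0.28, adjusted p = 0.023; 0.105 without mouse Advanced_9896; list median 0.31). The fibrillar collagen gene Col1a1 had 4.71, 6.70 and 6.86 CPM in advanced and 4.20 to 6.32 CPM in mild mice (0.30 ± 0.29, 0.62), and Col4a1 stood at 0.45 ± 0.28 (0.4). None of 16 YAP targets passed (median 0.78), with Ankrd1 at 1.47 ± 0.42 (0.079), nor did any of 25 TGF-beta family and growth factor ligands (median 0.44). Tgfb2 stood at 1.01 ± 0.29 (0.081), the EGF receptor ligands Areg at 1.29 ± 0.35 (0.069) and Hbegf at 1.52 ± 0.40 (0.064), and Pdgfd at 1.06 ± 0.32 (0.092). All 19 cytoskeleton genes lay above 0 (median 0.54) without a call, the filamin gene Flna among them (0.81 ± 0.21, 0.061).

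Of 14 NF-kB subunits and targets, 1 rose and all lay above 0 (median 0.40). It was the adhesion molecule Vcam1, with 10.7, 11.4 and 11.5 CPM in advanced, 3.50, 3.16, 4.51 and 4.85 CPM in mild and 0.485 to 1.05 CPM in control mice (1.49 ± 0.23, adjusted p = 0.0075), and its call stood whichever mouse was left out (largest 0.0474). Klf4 was the call among 12 immediate early genes (median 0.59). No gene passed among 23 of the cell cycle (median 0.43), 12 p53 targets (median 0.32), 20 interferon response genes (median -0.19), 17 of the unfolded protein and integrated stress response (median 0.08), 16 NRF2 targets (median 0.14), 13 of the Notch pathway (median -0.12) and 17 of the circadian clock (median -0.19). The stress hormone Fgf21 had 43.7, 44.5 and 17.8 CPM in advanced and 5.23 to 21 CPM in mild mice (1.35 ± 0.61, 0.24). Cdkn1a (0.54 ± 0.35, 0.43), Ccnd1 (0.67 ± 0.40, 0.38) and Gdf15 (0.07 ± 0.58, 0.97) did not pass either.

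Few markers of other liver cells passed the test. Of 18 endothelial markers Stab2 fell to 46.2, 56.3 and 52.3 CPM in advanced against 77.9, 91.9, 94.0 and 80.2 CPM in mild mice (-0.74 ± 0.18, adjusted p = 0.049), a call kept in none of the 7 leave-one-out fits (up to 0.127). Mertk among 13 Kupffer cell markers fell by 0.65 ± 0.13 on the log2 scale (0.025), and Cd9 among 12 markers of recruited macrophages rose by 1.14 ± 0.23 (0.028); both were lost without mouse Advanced_9896 (0.101 and 0.111). Gpnmb of the same list had 18.2, 23.2 and 32.1 CPM in advanced and 16.3, 16.4, 28.3 and 17.7 CPM in mild mice (0.32 ± 0.31, 0.61). None of 14 stellate cell markers passed (median 0.13), nor any of 10 lymphocyte (median -0.26) or 3 mesothelial markers (median 1.04). Summed levels were 151 to 172 CPM in advanced and 171 to 198 CPM in mild mice for endothelial markers, and 145 to 182 CPM in advanced and 180 to 225 CPM in mild mice for Kupffer cell markers. For recruited macrophages they were 80.0 to 94.3 CPM in advanced, 55.4 to 82.1 CPM in mild and 6.81 to 10.2 CPM in control mice. The part of these cells in the results was not tested.

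The same comparison in whole liver nuclei of the same mice called 117 genes higher and 148 lower of 14098 tested (1.88%; 0.83% higher and 1.05% lower). Of the 173 genes higher in advanced hepatocyte nuclei, 57 were also called higher in whole liver, which is 32.9% of the hepatocyte list and 48.7% of the whole liver list; 168 had the same sign. Of the 202 lower genes, 99 were also called lower, 49.0% of the hepatocyte and 66.9% of the whole liver list, and 201 had the same sign. None was called in the opposite direction. The whole liver count was 66 without mouse Advanced_9896, 85 without mouse Mild_9853, 87 without mouse Mild_9852, 93 without mouse Advanced_9845, 134 without mouse Advanced_10104 and 138 without mouse Mild_10102. Hepatocyte nuclei are also part of whole liver nuclei, so the lists are not independent.

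A difference of the change itself between fractions was called for 2 genes of 14315 (0.014%), Tspan15 and Pde10a. Tspan15 had 33.3 ± 8.57 CPM in advanced and 3.97 ± 0.361 CPM in mild hepatocyte nuclei, and 27.6 ± 3.4 CPM in advanced and 13.2 ± 0.973 CPM in mild whole liver nuclei (SD, n = 3 and 4). Its change was larger in hepatocyte nuclei by 2.04 ± 0.24 on the log2 scale (edgeR adjusted p = 0.00048). Pde10a had 60.9 ± 28.1 CPM in advanced and 5.46 ± 0.262 CPM in mild hepatocyte nuclei, and 80.5 ± 20.8 CPM in advanced and 38.2 ± 1.84 CPM in mild whole liver nuclei (difference 2.43 ± 0.30, 0.00063). In mild mice both genes were thus at a several-fold lower level in hepatocyte than in whole liver nuclei, on scales set within each fraction. With each mouse as a replicate block, which the mouse numbers in the labels allow, 5 genes were called: these 2, Niban1 (1.15 ± 0.16, 0.032) and Slc9a7 (1.26 ± 0.19, 0.042), all larger in hepatocyte nuclei, and Pde1a, whose fall was deeper there (-1.33 ± 0.20, 0.042).

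**Figure D3:**
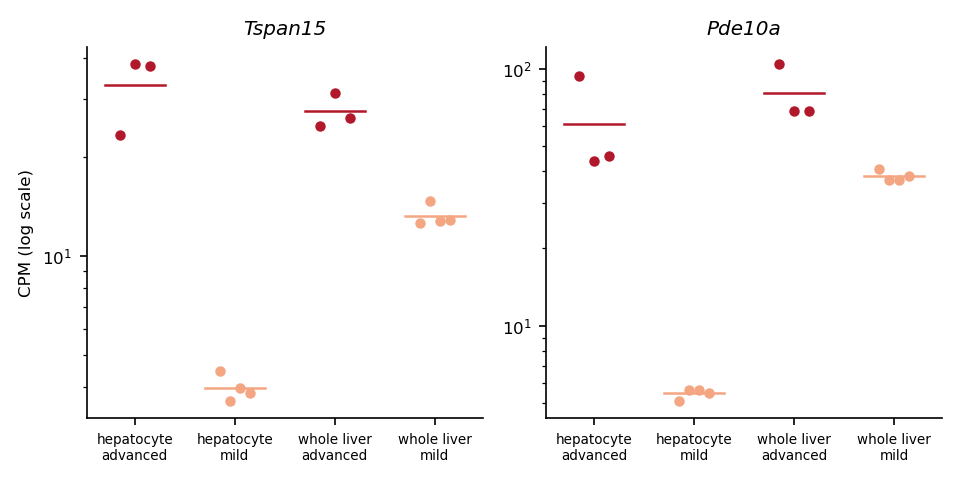
Tspan15 and Pde10a in hepatocyte nuclei (left pair) and whole liver nuclei (right pair) of advanced and mild CDAHFD mice, in CPM on a log axis scaled within each fraction; points are mice and bars are means. In hepatocyte nuclei the mild mice lie at 3.62 to 4.47 CPM of Tspan15 and 5.08 to 5.66 CPM of Pde10a, and the gap to advanced mice is wider than in whole liver.

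Hepatocyte nuclei of FPC mice gave the same contrast with no shared library. There 1716 genes were higher and 1011 lower in advanced than in mild mice of 13498 tested (20.2%; 12.7% higher and 7.49% lower). Of the 173 genes higher under CDAHFD, 171 were tested under FPC, 139 were called higher (81.3% of those tested, and 8.10% of the FPC list) and 169 had the same sign; their median log2 fold change was 1.32 under CDAHFD and 1.63 under FPC. Of the 202 lower genes 150 were called lower (74.3%, and 14.8% of the FPC list) and 199 had the same sign, with medians of -0.85 under CDAHFD and -0.81 under FPC. No gene was called in opposite directions. The count of lower FPC genes was 565 without FPC mouse Advanced_6880 and 632 without FPC mouse Mild_6887. Gldn had the largest rise here and stood at 40.6 ± 3.08 CPM in advanced and 0.482 ± 0.385 CPM in mild FPC mice (SD, n = 3 and 4; 6.43 ± 0.70, edgeR adjusted p = 7.1e-05). Hsd3b5 (-6.67, 1.9e-05) and Sult2a8 (-4.99, 3.9e-06) fell there as well. Among the leading genes that did not pass under FPC were Frmd5 (1.63 ± 0.91, 0.25), Tmc5 (1.25, 0.5), Tiam2 (-1.30, 0.15) and Apoa4 (0.15, 0.69). Tiam2, an exchange factor for Rac, had 0.606, 2.19 and 2.20 CPM in advanced CDAHFD mice, 17.3, 11.9, 11 and 14.3 CPM in mild and 62.2 to 116 CPM in control mice (-3.0 ± 0.36, 0.0023).

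**Figure D4:**
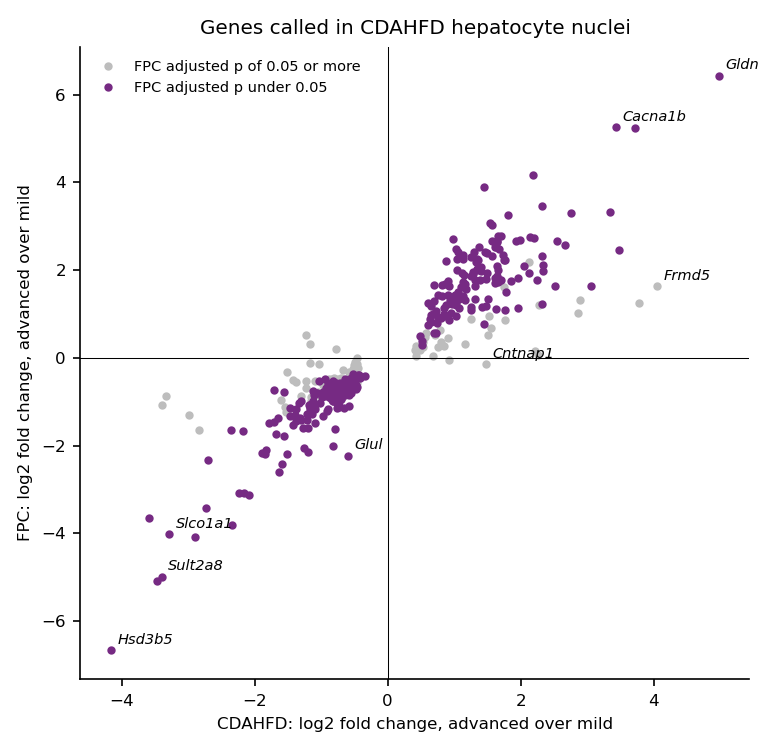
Log2 fold change, advanced over mild, of genes called in CDAHFD hepatocyte nuclei (x axis) against the same genes in FPC hepatocyte nuclei (y axis); purple points were also called under FPC and grey points were not. Of the genes higher under CDAHFD 139 were called higher under FPC, and of the lower genes 150 were called lower.

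Those of the genes called under FPC that were also tested under CDAHFD, 1642 of the 1716 higher and 977 of the 1011 lower, were then followed in single CDAHFD mice, as the median log2 difference from the mild mean. The 1642 genes higher in advanced FPC mice stood at 0.41, 0.66 and 0.69 in the advanced CDAHFD mice, at -0.17, -0.22, 0.22 and 0.19 in the mild mice and at -1.13 to -1.02 in controls. The advanced mice lay above every mild mouse, and within the mild group mice Mild_9894 and Mild_10102 lay above Mild_9852 and Mild_9853. The 977 genes lower in advanced FPC mice stood at -0.53, -0.49 and -0.38 in the advanced and -0.06 to 0.05 in the mild CDAHFD mice, and at 0.10 to 0.35 in controls. Of the 1642 genes, 1544 were above 0 between the CDAHFD stages and 139 were called higher (median 0.69 under CDAHFD and 1.55 under FPC), where 6629 of all 13277 genes lay above 0 and 1.3% were called higher. Of the 977 genes, 931 were below 0 and 150 were called lower (median -0.48 under CDAHFD and -0.78 under FPC), where 6648 of all genes lay below 0 and 1.52% were called lower.

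**Figure D5:**
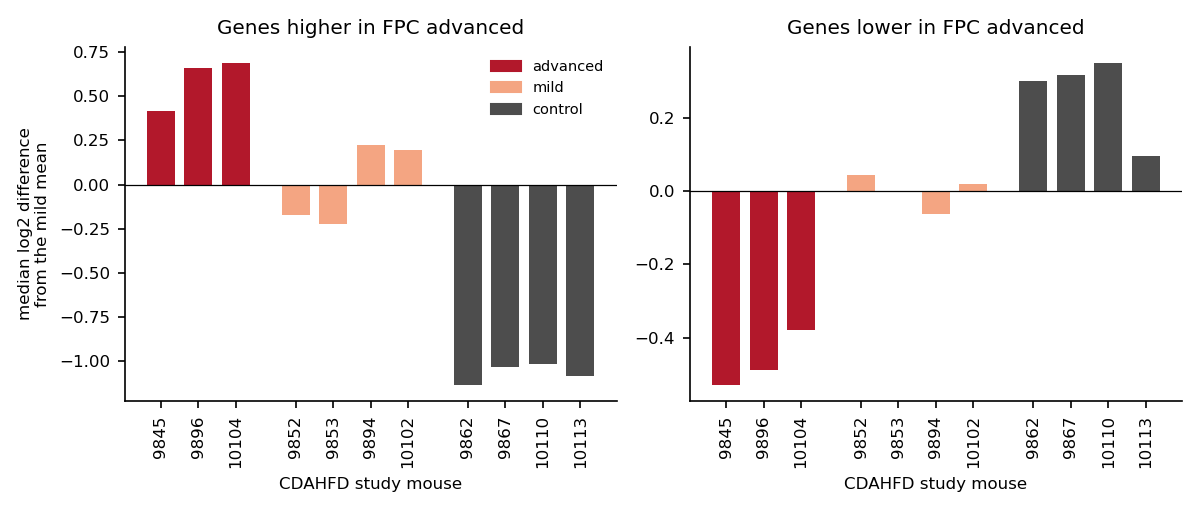
Median log2 difference from the mild mean, over genes called higher (left) and lower (right) in advanced FPC hepatocyte nuclei, in each CDAHFD study mouse; bars are single mice of the advanced, mild and control groups. Advanced mice lie at 0.41 to 0.69 for the higher genes, and mice Mild_9894 and Mild_10102 lie at 0.22 and 0.19.

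A difference of the change between diets was called for 14 genes of 13808 (0.101%; 0.029% with a positive and 0.0724% with a negative difference, CDAHFD minus FPC). Glul fell under both diets, by 0.60 ± 0.11 under CDAHFD and 2.23 ± 0.27 under FPC on the log2 scale (difference 1.61 ± 0.29, edgeR adjusted p = 0.026). Cntnap1 rose under CDAHFD (1.48 ± 0.16) and stood at -0.13 ± 0.25 under FPC (difference 1.60 ± 0.31, 0.041). It averaged 49.4, 17.6 and 6.79 CPM in advanced, mild and control mice of the CDAHFD study. In the FPC study these means were 14.8, 16.2 and 2.80 CPM, so both FPC disease groups lay above their controls. The rise was larger under FPC for D17H6S56E-5 (0.87 under CDAHFD, 2.21 under FPC) and for Epdr1 (0.98 under CDAHFD, 2.71 under FPC). Greb1l (0.75 under CDAHFD, 3.93 under FPC), the nuclear receptor Hnf4g (0.15 under CDAHFD, 2.20 under FPC) and Slc1a1, a glutamate transporter (-0.96 under CDAHFD, 4.09 under FPC), were called under FPC and not under CDAHFD, and their differences passed (0.00037, 0.0066 and 0.025). Greb1l had 51.5 CPM in mild and 86.7 CPM in advanced CDAHFD mice, and 6.75 and 103 CPM in FPC mice. Controls had 4.06 CPM in the CDAHFD and 1.38 CPM in the FPC study, so mild CDAHFD mice already stood well above theirs. Slc1a1 averaged only 0.491 CPM in advanced and 0.972 CPM in mild CDAHFD mice. Its advanced FPC mice were uneven, at 1.42, 7.09 and 19.9 CPM. These levels are on scales set within each diet. The diets also differed in length, 7 weeks of CDAHFD and 20 weeks of FPC, so diet and time cannot be told apart.

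The authors' deposited table of hepatocyte comparisons lists 13144 genes with an adjusted p for this contrast, of which 1004 (7.64%) are under 0.05, 555 higher and 449 lower in advanced mice. Of the 375 genes called here 339 are listed there with a value, 321 of them are under 0.05 in the authors' deposited table, and none has the opposite sign. Spp1, for example, is under 0.05 in the authors' deposited table (0.013), and by edgeR had an adjusted p of 0.12.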

How the data were processed

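The authors deposited raw counts, whole numbers per library for 20105 transcript identifiers, and a table of log2 fold changes between hepatocyte groups. The same deposited table gives an adjusted p-value for each comparison. Per the labels' protocols, 50 to 100 ng of total nuclear RNA went into a stranded kit without poly-A selection and was sequenced in pairs of 50 bases. The build mm10, the aligner STAR (2.4.2a) and DESeq2 (1.24.0) are named per the submitters' processing notes. The counting tool and its strand setting are not given in the sources used here, so overlapping and antisense genes cannot be separated. For 94.7% of the 13147 genes in the deposited table the counted length equals the whole gene, introns included. Symbols came from that table or, for 6879 identifiers, from a RefSeq table.

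The 11 CDAHFD hepatocyte libraries (3 advanced, 4 mild, 4 control) were fitted together in edgeR 4.0.16 (R 4.3.3) with TMM scaling, the default expression filter and a robust quasi-likelihood fit. Benjamini-Hochberg adjustment ran over all genes tested, with calls under 0.05. CPM values are counts per 1000000 of the TMM-scaled total, but the marker ratios of hepatocyte to whole liver nuclei used the unscaled total. The sign ± gives the standard error for log2 fold changes, which are advanced over mild, and SD for CPM. Whole liver, FPC and interaction fits were made alike. Each library is 1 mouse. Between replicates within the advanced or the mild CDAHFD hepatocyte group, chi-square over its degrees of freedom was 22.4 to 62.5. None of these 7 libraries is thus a repeat deposit of another in its group, and other groups were not checked. Code was tested on simulated counts.

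Genes named are the 15 higher and 15 lower with the largest change (mean of at least 1 CPM, no overlap), the 10 of each with the smallest p, up to 4 per list by p, fixed genes, and the leading genes of each interaction; Slc10a1, Hsd3b7 and Arhgap27 are outside this rule and were chosen after their values were seen. The comparison, the lists (33 pathway and 9 marker lists, 696 of 701 genes measured) and the named genes were chosen with earlier results of these data known. The pairing of fractions comes from mouse numbers in the labels; deviations of a mouse's 2 libraries correlated by 0.160 to 0.844 in 9 of 11 mice and by -0.193 and -0.254 in mice Control_9862 and Control_9867. Whether the labels of these 2 controls are crossed between fractions was not tested, so values given for either mouse carry that doubt. Alternatives were other scalings (RLE, upper quartile), DESeq2 1.42.0, other filters, thinned counts, the 7 libraries alone and leaving out each library.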

Additional observations from a re-analysis of the deposited data

Results flagged for a closer look

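Single mice stood apart from the rest of their group in 14 of 112 group checks by Dixon's criterion, where chance flags about 1 in 20. In the mild group, mouse Mild_9894 was high in Gldn (5.27 CPM, the others 1.17 to 1.72), Rbm24 (3.46 CPM, the others 1.94 to 2.04) and Gpnmb (28.3 CPM, the others 16.3 to 17.7). Mouse Mild_10102 was high in Lrtm1 (13.8 CPM, the others 4.64 to 5.92). Mouse Mild_9853 was low in BC016579 (3.87 CPM, the others 4.85 to 4.92) and high in Rap1gap2 (27.4 CPM, the others 22.4 to 23.1). Among controls, mouse Control_9867 was high in Gldn (7.96 CPM), Tmc5 (1.4 CPM) and Susd4 (459 CPM), mouse Control_10110 in Cyp2c54 (199 CPM) and Spp1 (3.3 CPM), and mouse Control_9862 in Cidec (1.07 CPM), Cd36 (6.79 CPM) and Igf1 (3103 CPM, the others 155 to 402). The libraries of Control_9862 and Control_9867 did not deviate together with their whole liver partners, so which of these 2 mice a value belongs to is in doubt.

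The change from mild to advanced disease differed between the diets, by edgeR's test of the difference (CDAHFD minus FPC, log2), in 14 genes. It was lower under CDAHFD for Greb1l (-3.20), Hnf4g (-2.07), Veph1 (-1.89), Tenm1 (-2.51), Slc1a1 (-5.07), Ptprt (-2.19), D17H6S56E-5 (-1.36), Klhl13 (-1.45), Epdr1 (-1.75) and Dclk1 (-2.62). It was higher under CDAHFD for Egfem1 (2.15), Glul (1.61), Sgcz (5.26) and Cntnap1 (1.60). Adjusted p-values ran from 0.00037 to 0.047. The change differed between hepatocyte and whole liver nuclei (hepatocyte minus whole liver) for Tspan15 (2.04) and Pde10a (2.43).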

How the results depend on the processing

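The CDAHFD hepatocyte contrast (375 genes, 173 higher, 202 lower) gave 1133 (618 higher, 515 lower) with DESeq2, 745 (370 higher, 375 lower) with the 7 advanced and mild libraries alone, and 124 lower genes with upper quartile scaling; the cause was not tested. DESeq2 called 374 of the 375 genes. Leaving out each library gave 60 to 745 calls, 40 to 333 higher and 20 to 412 lower. In whole liver (265) this gave 66 to 241 calls, 32 to 119 higher and 34 to 122 lower, and under FPC (2727) 1848 to 2897, 1283 to 1818 higher and 565 to 1135 lower. With each mouse as a replicate block the fraction difference had 5 calls in place of 2, 4 higher and 1 lower in place of 0. RLE scaling, low-count filters, thinned counts and the non-robust fit kept each count of calls within 1.5 times of its main value, wherever they were run. For named genes no alternative reversed a called direction, which the lack of overlap between stages made unlikely beforehand. Of the values, 245 lost and 148 gained the threshold, against 3613 on the same side of it. The 2 remaining values, Hnf4a without mouse Advanced_9845 and Pdgfa without mouse Advanced_9896, were uncalled and changed sign. Other uncalled values, such as Igf1 with its wide spread in mild mice, may have changed sign too and were not counted.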
